A study of Homo sapiens with 6 samples.

Results

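The axon guidance genes expressed in MDA-MB-231 cells were described from the mean normalized count that the authors deposited for each gene. Guidance genes were chosen by symbol alone, as the semaphorins of classes 3 to 7, the plexins, the neuropilins *NRP1* and *NRP2*, the ephrins and their Eph receptors, the Slits and Robo receptors, and the netrins and UNC5 receptors. The symbols matched 40 of 15917 listed genes. MDA-MB-231 is an established human triple-negative breast cancer line of mesenchymal character, and the study asked what changes in its RNA when RBMS3, an RNA-binding protein, is depleted. The 6 total RNA libraries fall into 3 groups of 2 biological replicates. The shCTRL cells carry a control hairpin and are labelled WT, the shRBMS3-B3 cells carry one hairpin against *RBMS3* and are labelled RBMS3 KD1, and the shRBMS3-C3 cells carry another and are labelled RBMS3 KD2. All groups were grown in DMEM with fetal bovine serum and antibiotics, and the study's methods describe knockdown lines made by lentiviral transduction of luciferase-labelled cells and puromycin selection.

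The value analysed is a single mean over libraries per gene, in which control and knockdown cells are pooled. It carries no spread between replicates and no depth per library, and it is not stated which libraries entered it. The legend that describes the comparison names 2 knockdown and 2 control replicates, so the mean may rest on fewer than the 6 libraries. Hence no group was compared with another, no gene was tested, and *RBMS3* could not be checked library by library. To compare genes, each mean normalized count was divided by the length of the gene's representative transcript in kilobases. This quantity is the level of a gene, in normalized counts per kb. Without an error on any level, neighbours in an order of levels cannot be separated, and in bulk RNA a gene used by fewer cells and a gene with less RNA per cell cannot be told apart.

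Guidance cues were first studied as the signals that steer growing axons. They are secreted or cell-surface ligands read by transmembrane receptors, and both sides are also used outside the nervous system in vessel growth, epithelial boundaries and the movement of tumour cells. Semaphorins signal through plexins, whose intracellular part acts on small GTPases, and the secreted class 3 semaphorins need a neuropilin as the ligand-binding co-receptor. Ephrins are themselves anchored in the membrane, so that they and the Eph receptor tyrosine kinases signal between touching cells in both directions. Slits bind Robo receptors, and netrins bind *DCC*, neogenin and the UNC5 receptors.

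The labelled cell line was checked against its markers on the same scale. All 6 markers set as high for this line stood above the upper quartile of listed genes, from 742 normalized counts per kb for *FN1* to 32189 for *VIM*. Of 6 markers set as low, the hormone receptor genes *ESR1* and *PGR* were not listed and *CDH1*, the epithelial cadherin, had 6.57 normalized counts per kb. *GATA3* and *EPCAM* had 55.6 and 69.3 normalized counts per kb, whereas *ERBB2*, set as low, had 342 and lay above 72.5% of listed genes. Among neuronal markers *RBFOX3* and *SNAP25* were not listed, *MAP2* and *SYT1* had 6.89 and 14.96 normalized counts per kb, and the tubulin gene *TUBB3* had 917. Of the endothelial markers *CDH5*, *TEK* and *VWF* were not listed and *PECAM1* had 10.1 normalized counts per kb. *RBMS3* itself had 32.1 normalized counts per kb, its paralogs *RBMS1* and *RBMS2* 116 and 444.

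The 40 guidance genes spanned a 337-fold range of levels, from 5.48 normalized counts per kb for *SEMA6A* to 1845 for *EPHA2*. Their median level was 114 normalized counts per kb, against 137 over all listed genes, and 17 of the 40 lay above that median. This direction depends on the length correction, because by mean normalized count alone 25 of the 40 lay above the median of all listed genes, and their median percentile was 62.5 in place of 45.3 per kb. Set against the quartiles of all listed genes, 8 stood above the upper quartile, 9 between it and the median, 10 between the median and the lower quartile, and 13 below the lower quartile. The sum of levels was carried by few genes, since *EPHA2*, *NRP1*, *PLXNA1*, *PLXNB2* and *SEMA7A* held 57.1% of it. The first 4 of these are receptors or a co-receptor, and *SEMA7A* is a ligand. The guidance genes are shown family by family in the plot of levels.

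**Figure D1:**
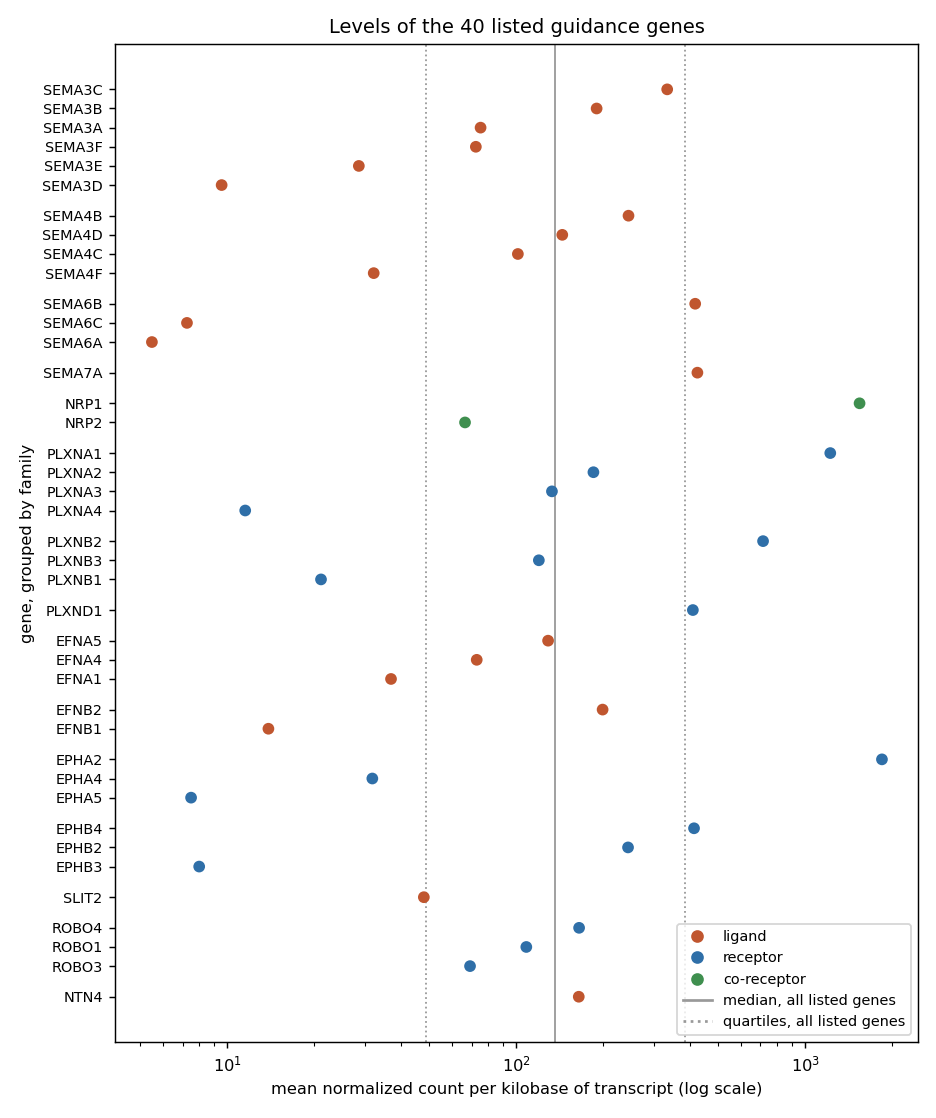
Level of each of the 40 listed guidance genes in normalized counts per kb of transcript (log axis), grouped by family on the vertical axis and coloured by role. Each point is the authors' single mean over libraries, so there are no error bars. The solid line is the median of all listed genes (137) and the dotted lines are the quartiles (48.6 and 383). In the SEMA6, NRP, PLXNA, PLXNB, EFNB and EPHA families one member stands well to the right of the rest.

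Both neuropilins were listed, and they lay far apart. *NRP1* binds class 3 semaphorins and vascular endothelial growth factor and lies on the minus strand at chr10:33177492-33336262 in GRCh38. It had a mean normalized count of 8705 and a level of 1543 normalized counts per kb, above 93.2% of listed genes. *NRP2*, at chr2:205681990-205798133 on the plus strand, binds semaphorin 3F and vascular endothelial growth factor C and had a mean normalized count of 442 and a level of 66.5 normalized counts per kb. The level of *NRP1* was therefore 23.2 times that of *NRP2*, and between 19.7 and 22.3 times under the other choices of length. *NRP1* alone made up 95.9% of the neuropilin sum.

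The study describes an AUA element for RBMS3, and the neuropilin 3′UTRs show what it looks like in these genes. The element has 7 letters, written here as DNA, with A, G or T first, then A or T, then ATA, then A or T, then A, which gives 12 spellings. Matches were counted on the sense strand of the 3′UTR, overlapping ones included. Spellings that end in AATAAA also contain the hexamer that directs mRNA cleavage and polyadenylation. The *NRP1* 3′UTR is 2583 bases long with 62.5% A+U and has 6 matches, each printed here with 8 flanking bases on each side, 5′ to 3′ in the sense of the mRNA and with the element in capitals.
NRP1 site 1, chr10:33179643-33179665, 419 bases after the stop codon: agtgcccaGAATATActagaatc
NRP1 site 2, chr10:33179082-33179104, 980 bases after it: acccttttGTATAAAgctacaat
NRP1 site 3, chr10:33178883-33178905, 1179 bases after it: atgtttaaAAATAAAtaaataag
NRP1 site 4, chr10:33178879-33178901, 1183 bases after it: ttaaaaatAAATAAAtaagggaa
NRP1 site 5, chr10:33177918-33177940, 2144 bases after it: gcactgatAAATATAtttaaaaa
NRP1 site 6, chr10:33177895-33177917, 2167 bases after it: ttatatgtTTATAAAgttattaa
Sites 3 and 4 share bases, since the matches overlap, and both hold AATAAA although they lie in the middle of the 3′UTR. The other 4 do not hold it.

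The *NRP2* 3′UTR also has 6 matches, in 3073 bases with 56.0% A+U. Of these, 3 hold AATAAA, and the last of them ends 14 bases before the annotated end of the transcript, where a polyadenylation hexamer is usually found. The sites without AATAAA are shown first and that last one after them, all on the plus strand.
NRP2 site 2, chr2:205795952-205795974: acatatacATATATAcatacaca
NRP2 site 3, chr2:205796787-205796809: tgtgctggAAATATAtttgaaac
NRP2 site 5, chr2:205798075-205798097: tatgatttGTATAAAgccttttt
NRP2 site 6, chr2:205798103-205798125: tactatttAAATAAAcattatac
In these 3′UTRs the neuropilins have the same number of matches, and their levels differ 23.2-fold. In the longest annotated 3′UTRs *NRP1* has 6 matches and *NRP2* 4. Whether matches and level are linked was not tested. A match is a stretch of letters, and binding by RBMS3 was not measured in these libraries. The paper mapped binding separately, by CLIP-seq (crosslinking and sequencing) with a tagged form of the protein. It took *NRP1* as a candidate gene with binding in the 3′UTR. The paper's candidates were also selected for lower mRNA and protein after *RBMS3* knockdown, without a reduced transcription rate. A further criterion was an association with better survival in a patient cohort. The pooled mean used here cannot show a change on knockdown. The paper also targeted *NRP1* in a pooled screen in mice and cloned an *NRP1* site into a reporter. That reporter sequence has no match to the element and is none of the 6 *NRP1* windows printed above. Whether RBMS3 binds at the printed windows was not tested here.

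**Figure D2:**
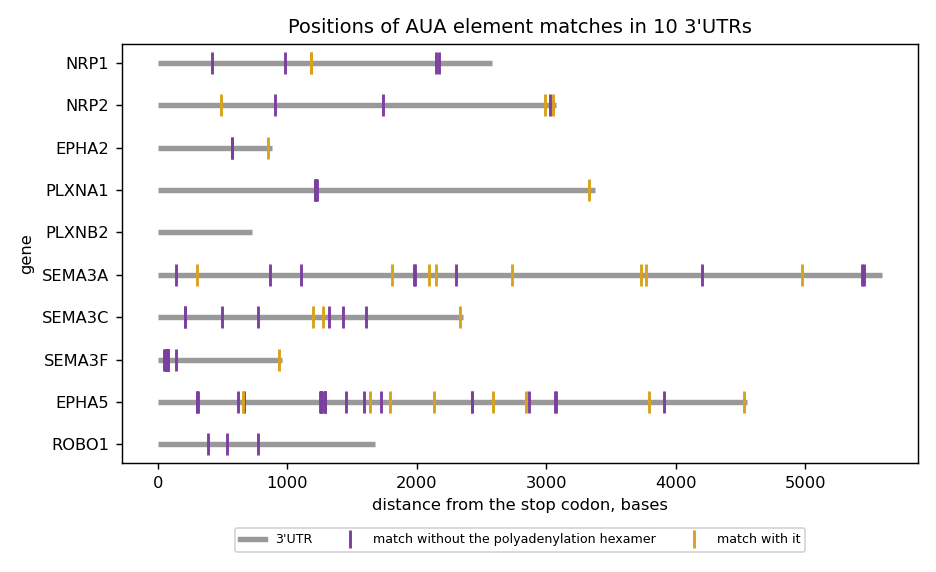
Positions of element matches (vertical ticks) along the 3′UTRs (grey bars, to scale) of 10 guidance genes, with distance from the stop codon in bases on the horizontal axis. Gold ticks are matches that hold the polyadenylation hexamer and purple ticks those that do not. *PLXNB2* has no match, and most of the 15 matches of *SEMA3F* are crowded near its stop codon.

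Secreted class 3 semaphorins repel or attract axons and endothelial cells. Of 7 annotated genes 6 were listed, and *SEMA3G* was not. *SEMA3C*, which acts through neuropilins and plexins, was the highest at 333 normalized counts per kb and made up 47.0% of the class sum of 709. *SEMA3B* followed at 189.8 normalized counts per kb. *SEMA3A*, the prototype of growth cone collapse, and *SEMA3F*, the preferred *NRP2* ligand, were close to each other at 75.2 and 72.5 normalized counts per kb. *SEMA3E*, which binds plexin D1 without a neuropilin, had 28.5 normalized counts per kb, and *SEMA3D* had 9.55. Per kb of transcript, only *SEMA3C* and *SEMA3B* stood above the median of all listed genes in this class. Without correction for length *SEMA3A* did so too, at percentile 62.6. In the class, the level of *SEMA3C* was 4.43 times that of *SEMA3A*, and 2.66 times without correction for length.

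Most class 3 genes have at least 10 matches to the element. *SEMA3C* has 10 matches in a 3′UTR of 2356 bases, *SEMA3A* 17 in 5594, *SEMA3E* 22 in 4348 and *SEMA3D* 18 in 3887. Over all listed genes the median was 11 matches in 3′UTRs above 2858.25 bases. It was 5 in those from 1377.5 to 2858.25 bases, where *SEMA3C* lies. The density per kb of 3′UTR was at percentile 59.7 of listed genes for *SEMA3A*, 74.1 for *SEMA3C*, 77.6 for *SEMA3D* and 81.0 for *SEMA3E*. These 4 genes share 3′UTRs rich in A+U, from 66.6% to 71.3%, and they lie on the minus strand of chromosome 7 between positions 80742538 and 85187056. *SEMA3B* and *SEMA3F*, neighbours 78482 bases apart on chromosome 3, have A+U shares of 39.5% and 42.7% and go different ways. *SEMA3B* has no match. *SEMA3F* has 15 in only 960 bases, or 15.6 per kb, a density above that of 98.3% of listed genes with a 3′UTR. Of these 15, 10 are spelled ATATATA and come from a single TA repeat, so that they are one run rather than separate sites. The first element, a window inside the repeat, the one match between the repeat and the end, and the match near the end show this, all on the plus strand.
SEMA3F site 1, chr3:50188156-50188178, 49 bases after the stop codon: gtccctttTAATATAaaagatat
SEMA3F site 7, chr3:50188175-50188197, inside the repeat: atatatatATATATAtatatata
SEMA3F site 14, chr3:50188250-50188272: ggtgggttGAATATAgcctgcct
SEMA3F site 15, chr3:50189042-50189064, 19 bases before the end: catcttgcTAATAAAcactggct
For comparison, the *SEMA3C* matches, apart from an overlapping pair near the stop codon, lie separately along its 3′UTR, as in the following windows on the minus strand, of which the last holds AATAAA 17 bases before the end.
SEMA3C site 4, chr7:80744107-80744129: gactcaaaGAATATAatctggca
SEMA3C site 7, chr7:80743559-80743581: atgctctcATATATAttttaaaa
SEMA3C site 10, chr7:80742547-80742569: gcctggcaAAATAAAacatgttg

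Membrane-bound semaphorins act between neighbouring cells. Of the class 4 genes, *SEMA4B* had 245 normalized counts per kb, *SEMA4D* 144, *SEMA4C* 101.3 and *SEMA4F* 32.1, and *SEMA4A* and *SEMA4G* were not listed. *SEMA4D* and *SEMA4C* are known ligands of plexins B1 and B2. *SEMA6B*, a class 6 gene, had 416 normalized counts per kb, which was 57.5 times the level of the next, *SEMA6C*, and 97.0% of the class sum. *SEMA6C* and *SEMA6A* were the lowest of all 40 genes per kb of transcript, at 7.25 and 5.48 normalized counts per kb, and *SEMA6D* was not listed. Class 5 had no listed gene. *SEMA7A*, whose protein is held in the membrane by a lipid anchor and binds plexin C1 and integrins, had 424 normalized counts per kb, the highest semaphorin level per kb of transcript, while *PLXNC1* was not listed. *SEMA6B* and *SEMA3C* stand above *SEMA7A* without correction for length, and *SEMA3C* also per kb of coding sequence. *SEMA4B*, *SEMA4C* and *SEMA7A* have 1 match each, which holds AATAAA, and *SEMA6B* has none.

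Plexins were listed for 8 of 9 genes. *PLXNA1*, a partner of the neuropilins in semaphorin reception, had the highest mean normalized count of the guidance genes, 11375, and a level of 1222 normalized counts per kb. Its level was 6.61 times that of *PLXNA2* at 185 normalized counts per kb and 9.19 times that of *PLXNA3* at 133, and *PLXNA4* had 11.5. *PLXNB2*, which binds class 4 semaphorins and angiogenin, had 715 normalized counts per kb, followed by *PLXNB3* at 119.7 and *PLXNB1* at 21.1. *PLXNB2* stood 33.9-fold above *PLXNB1* per kb of transcript, and at least 30.3-fold above it under every choice of length tried. *PLXND1*, the vascular plexin that binds semaphorin 3E, had 409 normalized counts per kb. Thus one plexin A and one plexin B gene held 78.8% and 83.5% of the sums of their families. The 3′UTR of *PLXNA1* is 3372 bases long with 39.9% A+U and has 6 matches, 5 of them in one short A+U-rich stretch. *PLXNB2* and *PLXNB1*, with 3′UTRs of 725 and 632 bases, have none, and *PLXNA2* and *PLXNA4* have 11 and 9.

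Ephrins were listed for 5 of 8 genes and none exceeded 199 normalized counts per kb. Ephrin A ligands are held by a lipid anchor, and *EFNA5* led them at 129 normalized counts per kb, before *EFNA4* at 73.0 and *EFNA1* at 36.8. *EFNA2* and *EFNA3* were not listed. Ephrin B ligands span the membrane and signal backward into their own cell. *EFNB2*, the ligand of *EPHB4* in vessels, had 199 normalized counts per kb, 14.4 times the 13.9 of *EFNB1* (21.7 times without correction for length and 22.5 times per kb of coding sequence), and *EFNB3* was not listed. *EFNA5* and *EFNB2* have short coding sequences and long 3′UTRs, so their place depends on the length chosen, with *EFNA5* moving from rank 19 to rank 4 and *EFNB2* from rank 12 to rank 5 per kb of coding sequence. They also have 13 and 15 matches, against none in *EFNA4*, 2 in *EFNA1* and 1 in *EFNB1*. *EFNA4* shares exons on the same strand with the read-through gene *EFNA4-EFNA3*, so reads of the pair could be divided between them.

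Eph receptors were listed for 6 of 14 genes, and *EPHA2* dominated. *EPHA2*, a receptor tyrosine kinase abundant in many carcinomas, lies at chr1:16124337-16156069 on the minus strand and had the highest level of the 40 genes, 1845 normalized counts per kb, above 94.4% of all listed genes. It was 58.1-fold above *EPHA4* at 31.7 normalized counts per kb, 36.0-fold above it without correction for length and 36.4-fold per kb of coding sequence, and held 97.9% of the EphA sum. *EPHA5* had 7.49 normalized counts per kb, and the other 6 EphA genes were not listed. *EPHB4* and *EPHB2* had 412 and 244 normalized counts per kb, and their order turns round without correction for length and per kb of coding sequence. The 3′UTR of *EPHB2*, at 7930 bases, is the longest among the guidance genes and holds only 2 matches, whereas *EPHA5* has 31 in 4547 bases, the most of the 40. *EPHB3* had 7.99 normalized counts per kb, and *EPHB1* and *EPHB6* were not listed. *EPHA2* has 3 matches, of which the first and second overlap and the third holds AATAAA near the end.
EPHA2 site 1, chr1:16124630-16124652: aggtttttAAATATAtattttgt
EPHA2 site 2, chr1:16124628-16124650: gtttttaaATATATAttttgtac
EPHA2 site 3, chr1:16124350-16124372, 21 bases before the end: ctgctctgGAATAAAgttgcaga
Among the Eph genes of low level the number of matches differed, since *EPHB3*, close to *EPHA5* in level, has 1 match.

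Slit and Robo genes were fewer and of middle or low level. *SLIT2* was the only Slit listed, at 47.9 normalized counts per kb, and *SLIT1* and *SLIT3* were not. Its receptor gene *ROBO1* had 108 normalized counts per kb. *ROBO4*, a Robo of endothelial cells, had 165, and *ROBO3*, known from commissural axons, had 69.2, while *ROBO2* was not listed. *ROBO4* and *ROBO3* lie tail to tail 2219 bases apart on chromosome 11. Of the 4 endothelial markers only *PECAM1* was listed, at 10.1 normalized counts per kb, and their part in the *ROBO4* level was not tested. *ROBO1* was above *ROBO4* without correction for length. The 3 matches of *ROBO1* all lack AATAAA and lie at least 894 bases from the end of the transcript, on the minus strand.
ROBO1 site 1, chr3:78598512-78598534: tattgatcAAATATAgaaagttg
ROBO1 site 2, chr3:78598365-78598387: gaaactaaAAATATAgcaaatgc
ROBO1 site 3, chr3:78598125-78598147: aaaagtaaTTATAAAtacgtatt
*SLIT2* has 10 matches in 1552 bases and *ROBO4* and *ROBO3* have 1 each.

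The netrin system was the least represented. *NTN4*, a netrin that binds laminins, had 164.6 normalized counts per kb and 10 matches in a 3′UTR of 1279 bases. *NTN1* and *NTN3*, the UNC5 receptors *UNC5A* to *UNC5D* and the netrin receptor gene *DCC* were not listed. *NEO1*, which encodes neogenin, had 28.1 normalized counts per kb.

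Sums over the semaphorin, ephrin and Slit systems set receptors beside ligands. In the semaphorin system the 8 plexins summed to 2816 normalized counts per kb and the 14 listed ligands to 2084, a ratio of 1.35. That ratio was 1.12 per kb of coding sequence, where the sums were nearly equal, and 2.71 without correction for length. The neuropilins added 1609.8 normalized counts per kb. Eph receptors summed to 2548 normalized counts per kb and ephrins to 452, a ratio of 5.64 that fell to 1.79 per kb of coding sequence. Robo receptors summed to 343 normalized counts per kb against 47.9 for *SLIT2*, a ratio of 7.16. The receptor sum exceeded the ligand sum in these 3 systems under each choice of length tried, and the size of the ratio depended on it. For the netrin system no ratio was formed. *NTN4* had 164.6 normalized counts per kb and the receptor gene *NEO1* 28.1, while *DCC* and the UNC5 receptors had no entry and so no value. Genes without an entry are missing from these sums, and the lowest listed mean normalized count was 26.7.

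**Figure D3:**
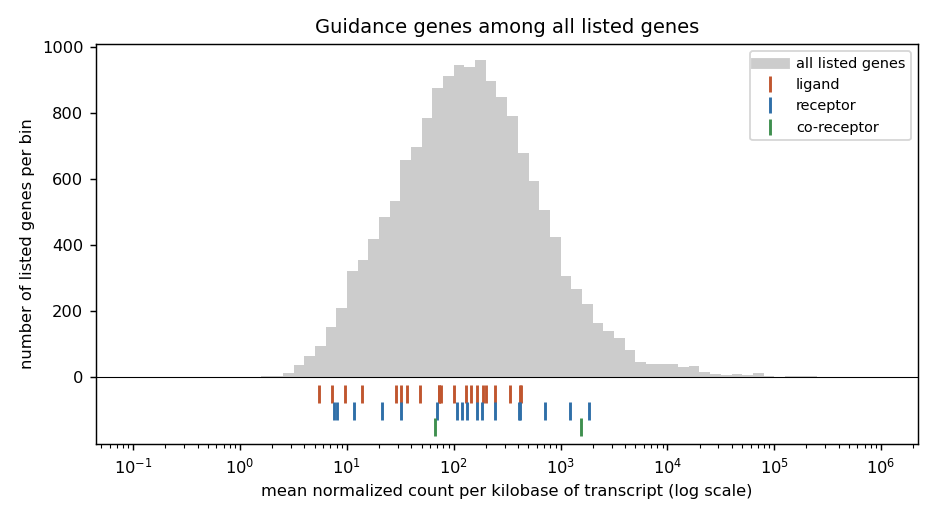
Levels of all listed genes with a transcript length (grey histogram, number of genes per bin) and of the 40 guidance genes (ticks under the histogram, coloured by role), in normalized counts per kb on a log axis. The guidance genes lie between 5.48 and 1845, the highest ticks are receptors and 1 co-receptor, and the ligands end at 424.

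The order of the guidance genes held for the most part when the length was chosen otherwise. Over the 3 other choices, 108 of 120 ranks stayed within 5 places. *EPHA2*, *NRP1* and *PLXNA1* took the first 3 ranks in each. *EFNA4* and *EFNA1*, which have the shortest transcripts of the set, fell from ranks 24 and 29 to 33 and 36 without correction for length. *PLXNA2* and *PLXNA3*, with transcripts of 11508 and 10885 bases, rose from ranks 14 and 18 to 7 and 11.

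**Figure D4:**
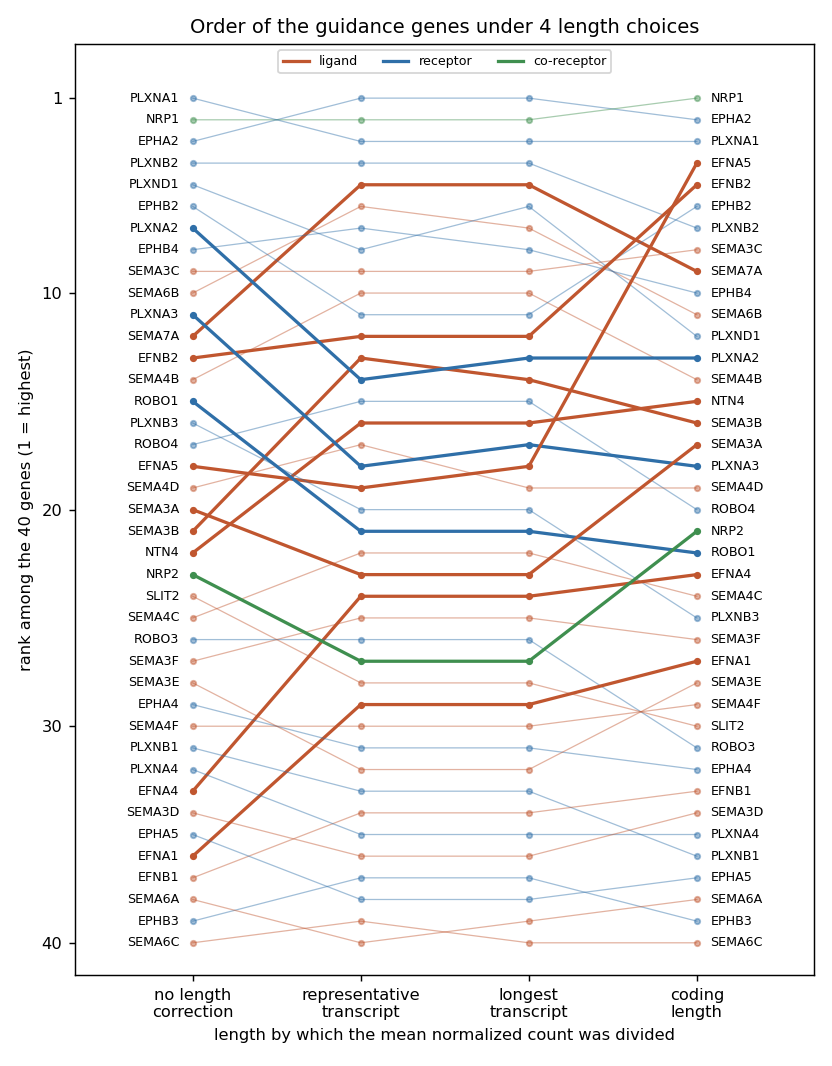
Rank of each guidance gene (1 is the highest) by mean normalized count with no length correction, per kb of the representative transcript, per kb of the longest transcript and per kb of coding sequence. Lines join 1 gene across the 4 choices, and heavy lines mark the 12 genes whose rank moved by over 5 places. The top 3 genes stay on top in all of them.

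The share of guidance genes with the AUA element was close to that of all listed genes. At least 1 match was present in the 3′UTR of 35 of 40 genes, or 87.5%, and in 84.8% of all 12352 listed genes with a 3′UTR. At least 3 matches were present in 20 genes, or 50%, against 53.1%. *PLXNB2*, *SEMA6B*, *SEMA3B*, *EFNA4* and *PLXNB1* had none, and their 3′UTRs are all shorter than the listed median of 1377.5 bases. The median guidance 3′UTR had 1487.5 bases, near the listed median. Of the 40, however, 15 lay above the upper quartile of length and only 2 at or below the lower quartile. The median A+U of guidance 3′UTRs was lower, 48.9% against 57.9%. The median density was 1.81 matches per kb against 2.43. Of the 15 guidance genes with a 3′UTR above the upper quartile of length, 2858.25 bases, all 15 had a match, as had 98.2% of listed genes there. Between the lower quartile and the median, from 534.75 to 1377.5 bases, 12 of 17 had one, against 83.5% of listed genes. Across the 40 genes, the rank correlation of number of matches with level per kb was -0.15 and with the mean normalized count 0.015, and over all listed genes it was -0.29 and -0.023. The transcript length that divides the level includes the 3′UTR in which matches were counted, and all genes share one mean and one annotation, so these are descriptions.

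**Figure D5:**
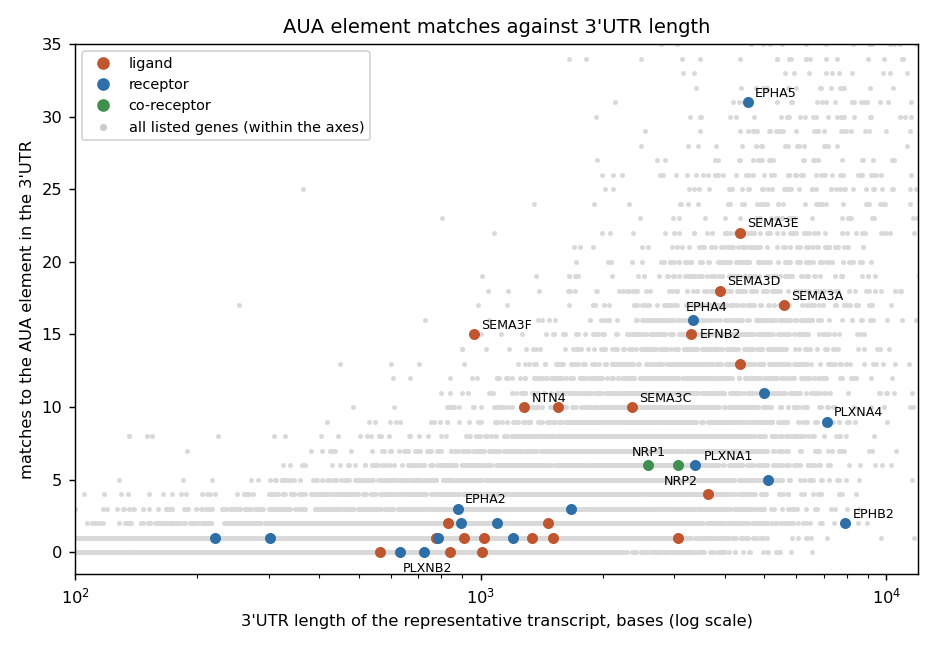
Matches to the element in the 3′UTR (vertical axis) against 3′UTR length in bases (log axis) for the 40 guidance genes, coloured by role, and for all listed genes within the axes (grey). Guidance genes lie within the grey cloud, *EPHA5* is the highest of them with 31 matches, and *SEMA3F* lies above most genes of its 3′UTR length with 15.

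The polyadenylation hexamer accounted for part of the matches. In the paper's motif search among its RBMS3 CLIP-seq sites, this hexamer had the strongest enrichment. Whether RBMS3 binds the matches counted here, with or without AATAAA, was not tested. The guidance 3′UTRs held 250 matches, of which 90, or 36.0%, contained AATAAA, the same share as over all listed genes. A match with AATAAA lay within 40 bases of the end of the 3′UTR in 27 of the 40 genes, or 67.5%, against 52.2% of listed genes. In 8 genes every match contained AATAAA, and in the other 27 with a match at least 1 did not. The most frequent spellings were AAATAAA with 54 matches and ATATATA with 43. In 50 cases a match overlapped the next, as in the repeats of *SEMA3F* and *PLXNA1*. In the coding sequence 27.5% of the guidance genes had a match, against 40.5% of all listed genes.

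Other genes of the guidance pathways were counted from 6 lists of co-receptors, ligands and signalling genes. Of 52 such genes in these, 42 were listed, with a median level of 238 normalized counts per kb, and 26 of them stood above the median of all listed genes. Among other ligands *VEGFA*, which binds *NRP1*, had 842 normalized counts per kb and *VEGFC*, which binds *NRP2*, 449.8. Among other receptors the hepatocyte growth factor receptor *MET* and the adhesion molecule *L1CAM* had 548 and 365 normalized counts per kb. *KDR*, a receptor of vascular endothelial growth factor that pairs with *NRP1*, had 19.8 normalized counts per kb, and *FLT1* and *FLT4* were not listed. Of 12 listed genes of plexin and semaphorin signalling 10 stood above the median. They included *MICAL2*, which oxidizes actin, at 2724 normalized counts per kb, *DPYSL2*, the mediator of collapse by semaphorin 3A, at 1176, and *GIPC1*, an adaptor of the *NRP1* tail, at 1055. In Eph and ephrin signalling 6 of 12 stood above the median, with *PTPN11* at 813 and *ABL1* at 517 normalized counts per kb. In Slit and Robo signalling it was 2 of 5, among them *SRGAP2* at 355 normalized counts per kb. The shared GTPase genes *RHOA*, *RAC1* and *CDC42* had 4685, 1678 and 204 normalized counts per kb.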

How the data were processed

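Total RNA of 6 MDA-MB-231 libraries was sequenced from paired ends after a stranded small-input kit with ribosomal depletion. The submitters' processing notes name Salmon, DESeq2 and build hg38 without versions. The authors deposited one table of 15917 genes whose signal column is a mean normalized count over libraries, not divided by length and without depth or spread. Its lowest value is 26.7. Genes without an entry have no value here, so they were not shown to lie below it. Another 5 columns hold the authors' own comparison of knockdown with control cells (fold change, standard error, statistic, p-value, adjusted p-value) and were not used. As values per library were not analysed, the count test laid out in the design was not run and nothing was tested.

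Ensembl identifiers were looked up in GENCODE release 44 on GRCh38, where 15829 matched and 88 did not. Levels, 3′UTRs and sites come from the representative (MANE Select) transcript of each guidance gene. If the authors' annotation or transcript use differs, levels shift with it. All 250 site windows equal the genome sequence. GENCODE has 67 protein-coding guidance genes by the symbol rule, of which 27 were not listed. All 40 listed were named by family in order of level, with other guidance, RBMS and marker genes from lists. The members and lists were chosen with earlier results of these data known. Alternatives were the length, the reference set of genes, the 3′UTR, the number of matches and the coding sequence. Functions were tested on simulated data. The tools were pandas 2.3.3 and numpy 2.4.6 for the tables, SciPy 1.17.1 for the binomial interval and matplotlib 3.10.9 for plots, all under Python 3.11.15.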

Additional observations from a re-analysis of the deposited data

How the results depend on the processing

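Among 143 alternative values for 49 results, 120 stayed the same, 22 moved and 1 changed side. Most of these were ranks of single genes, 120 in number, of which 108 stayed within 5 places and counted as the same. Of the other 23 alternatives, 12 stayed the same. The median percentile of the guidance genes by level was 45.3 per kb of transcript, 62.5 with no length correction, which lies on the other side of the median, and 33.5 per kb of coding length. Above the median mean normalized count of all listed genes stood 25 of the 40. The highest member was the same in 13 of 15 families with no length correction, where *EPHB2* and *ROBO1* took over from *EPHB4* and *ROBO4*, and in 14 per kb of coding length. The share with the element was 50% for at least 3 matches and 27.5% in the coding sequence, against 53.1% and 40.5% of all listed genes. Both were labelled as moved because they lie outside the binomial interval of 73.2% to 95.8% around 87.5%. That interval served only as a label and is no test, since these shares measure different things. The median 3′UTR length was 2321.5 bases with the longest 3′UTRs, against 1911 over all listed genes. Chosen after seeing the data were the alternatives for ranks, of which 12 of 120 moved by over 5 places, and for receptor over ligand sums, which gave 2.71 for semaphorins and 4.60 for Slits with no length correction and 1.79 for ephrins per kb of coding length. These moves follow from the lengths and regions exchanged. No paired analysis was possible because the result comes from no test and only one mean over libraries was analysed. For the same reason the alternative normalizations, count filters, DESeq2, single hairpins and leaving out each replicate were not run.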

Other observations

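Promoters gave a further description. RefSeq promoter windows on GRCh38.p14, from 250 bases before to 50 after the start, matched 36 of the 40 listed guidance genes and 21 of the 27 not listed. Their median G+C was 66.8% and 63.7%, and both sets had a median of 22 CpG dinucleotides per window. Protein-coding genes that were listed had a median of 65.3% G+C and 26 CpG, and those not listed 56.0% and 7. By this measure the guidance genes that were not listed resembled listed genes more than other genes that were not listed, without a test. TATAAA on either strand was present in 1 of the 36 guidance promoters, or 2.78%, against 5.51% of listed protein-coding promoters and 9.63% of all protein-coding promoters in the table.

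Several guidance genes share exonic bases with other genes. An overlap on the same strand was annotated for 3 of the 40 (*EFNA4*, *PLXNB3* and *SEMA3B*) and on the opposite strand for 12, and among those the partner gene was itself listed for *EPHB4* with *SLC12A9* and for *PLXNA3* with *LAGE3*. Reads of same-strand partners could be divided between genes in the counting.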
